A study of Mus musculus with 15 samples.

Results

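Genes for histone deacetylases, sirtuins, lysine methyltransferases and demethylases, the Mediator complex, SWI/SNF chromatin remodellers and nuclear receptor coregulators were followed through the adipogenic differentiation of mouse embryonic fibroblasts (MEFs). A member was a protein-coding Hdac, Sirt, Med, Smarca to Smarce, Arid1a or Arid1b, Kmt2, Kdm, Ncoa, Ncor, Sin3, Wdr5, Ep300 or Crebbp gene outside chromosomes X and Y with at least 10 counts in at least 3 samples. Of 99 genes with such symbols, 8 lay on X or Y and 2 fell below the count rule, which left 89 members of 46603 genes listed in the files. Just outside the rule, Kdm4d reached 14 counts in its highest sample and Med10 reached 1. Just inside it, Med12l had between 1 and 22 counts over the 15 samples and Hdac9 between 6 and 80. The rule on counts was met by 16057 genes in all, and all 89 members were among the 15997 genes tested.

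RNA-Seq was performed on MEFs from wild-type BALB/c embryos of 10.5 days, in 5 conditions of 3 samples each with the replicate numbers 1, 3 and 4. MEFD0 was taken before treatment, and MEFD3min and MEFD5min were untreated cells kept in growth medium to day 3 and day 5. MEFD3plu was treated for 3 days with insulin (10 µg/mL), dexamethasone, a glucocorticoid (1 µM), rosiglitazone, which activates PPARγ (10 µM), and IBMX, which blocks the breakdown of cAMP (0.5 mM), and MEFD5plu had the same treatment to day 3 followed by growth medium to day 5. Each sample held from 24030558 to 37281126 counts. The labels do not say whether the replicates came from separate embryos or cultures, and the paper's general remark on independent experiments is not tied to these samples, so p-values measure the spread between these samples, which may be technical. In RNA of a whole culture, fewer cells of a type and less RNA per cell cannot be told apart.

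The cells carried the markers of their labels. The summed level of 9 adipocyte markers, Adipoq, Fabp4 and Pparg among them, was 46.2 to 69.9 CPM, counts scaled by library size, in the untreated samples, 9779 to 12255 CPM in MEFD3plu and 11288 to 13344 CPM in MEFD5plu, and all 9 were differentially upregulated at both days. The 9 fibroblast markers were detected in each condition, with sums from 8252 to 9298 CPM in MEFD0, from 21138 to 28386 CPM in MEFD3min and from 10965 to 13909 CPM in the other conditions. In treated against untreated cells, 1 of them was higher and 7 lower at day 3 (median log2 fold change -1.60). At day 5, 2 were higher and 2 lower (median -0.17). The 6 macrophage, 4 endothelial, 4 epithelial and 4 skeletal muscle markers summed to at most 15.1, 2.23, 1.19 and 2.17 CPM, and in each condition at least 3 of the epithelial and 3 of the muscle markers had no more than 3 counts. The 8 cell cycle genes summed to between 2629 and 2719 CPM in MEFD0, 526 to 663 CPM in MEFD3min, 559 to 610 CPM in MEFD3plu, 1925 to 2000 CPM in MEFD5min and 1407 to 1451 CPM in MEFD5plu. The part of cell type shares and of culture growth in the results was not tested. MEFD3min replicates 3 and 4 lay apart in opposite directions on the members themselves. Over the 33 members with more than 8 kb of exon, replicate 3 lay 0.33 (log2) above the mean of its condition in the median. Replicate 3 was the highest of its condition for 27 of these, while MEFD3min replicate 4 lay below that mean (median -0.29). For the 56 shorter members these medians were 0.08 and -0.07. Leaving MEFD3min replicate 3 out brought 17 further members past the test at day 3 and took 2 away. It was singled out on these values of the members, so calls gained at day 3 without it add no support for a rise. Its effect is given beside the counts and members it touched most. Members gained without MEFD3min replicate 4 are not listed.

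Coregulators are largely brought to genes by transcription factors, among them the nuclear receptor PPARγ and the C/EBP proteins that drive fat cell formation. Histone acetyltransferases such as p300 and CBP and the p160 coactivators open chromatin at enhancers, KMT2C and KMT2D (MLL3 and MLL4) place the H3K4 monomethyl mark there, SWI/SNF (BAF) remodellers slide and evict nucleosomes, and Mediator links the bound factors to RNA polymerase II. HDACs with the NCoR and SIN3 scaffolds, and several lysine demethylases, act in the opposite direction. Since many of these proteins come as pairs of paralogues that share a place in a complex, the make-up of a complex can differ between cell states.

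At day 3, 23 of the 89 members were differentially upregulated and 17 downregulated in MEFD3plu against MEFD3min (edgeR's quasi-likelihood test, p adjusted by Benjamini-Hochberg over 15997 genes to under 0.05), which compares with 28% of all genes tested in each direction and 56.1% in either. At day 5, 16 members were higher and 32 lower in MEFD5plu against MEFD5min, where 26.3% of all genes were higher, 24.2% lower and 50.5% either. Higher members thus made up 26% of the 89 at day 3 and 18% at day 5, and lower members 19% and 36%. The median log2 fold change of the members was 0.07 at day 3 and -0.10 at day 5, beside -0.00 and 0.01 over all genes tested. Scaling by library totals alone moved the all-gene median at day 5 by -0.16, turned the split of all calls from 52.1% to 37% higher, and gave 8 higher and 43 lower members, so that values at day 5 are best read against that shift. Without MEFD3min replicate 3, 37 members were higher and 18 lower at day 3, and without MEFD3min replicate 4, 22 were higher and 17 lower. Without MEFD5plu replicate 3 or MEFD5min replicate 3, 18 or 20 members were lower at day 5.

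The response of the same gene often differed between the days. MEFD3plu was sampled under treatment and MEFD5plu after the return to growth medium, so time and the end of treatment cannot be told apart here. The difference of both log2 fold changes, day 3 minus day 5, passed the test in the positive direction for 34 members (38%) and in the negative direction for 16 (18%), against 22.6% and 25.8% of all genes and 48.5% in either direction. Under library totals alone the positive and negative counts were 44 and 9, with a shift of 0.18 in the all-gene median and 59.5% of all calls positive in place of 46.7%. Without MEFD3min replicate 3 they were 44 and 18, and without MEFD3min replicate 4 they were 29 and 15. Both comparisons have samples of their own, so the calls can be set side by side: 7 members were higher at day 3 and lower at day 5 (Hdac4, Kdm6b, Med13l, Med22, Med24, Med25 and Wdr5), and 4 were lower at day 3 and higher at day 5 (Hdac1, Sirt2, Sirt5 and Smarca2). For all 11 the difference between the days passed the test too. That adds no support, since calls in opposite directions in the same fit all but imply it. A further 7 were higher at both days (Hdac9, Kdm7a, Med20, Med27, Ncoa1, Ncoa4 and Smarcd2), 4 were lower at both (Hdac5, Med19, Ncoa3 and Smarcc1), and 23 passed at neither. The shares of all genes with such pairs of calls were not counted, so these counts are not read as particular to the members.

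**Figure D1:**
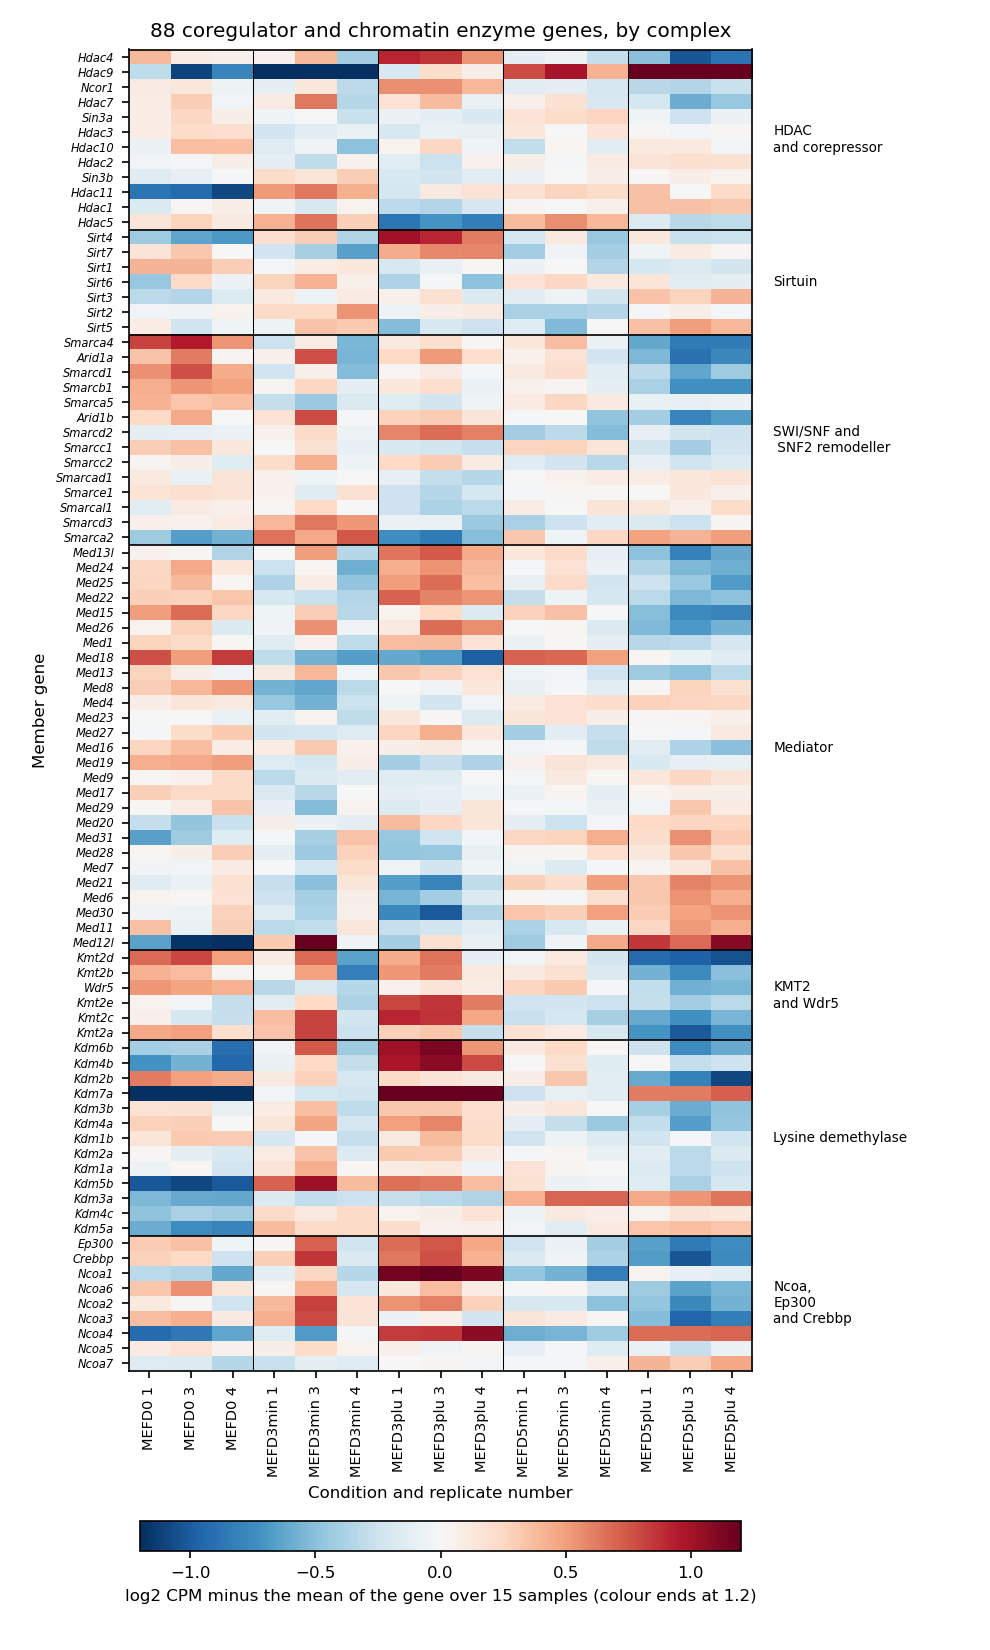
Level of 88 of the 89 members (rows, grouped by complex and ordered by the day 3 minus day 5 difference) in each of the 15 samples (columns), as log2 CPM minus the gene's mean over all samples. Rows such as Hdac4, Med24, Kmt2c and Kdm6b are red in MEFD3plu and blue in MEFD5plu, Smarca2 has the reverse pattern, and MEFD3min replicate 3 is redder than the other MEFD3min samples for long genes such as Kmt2a and Arid1a.

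**Figure D2:**
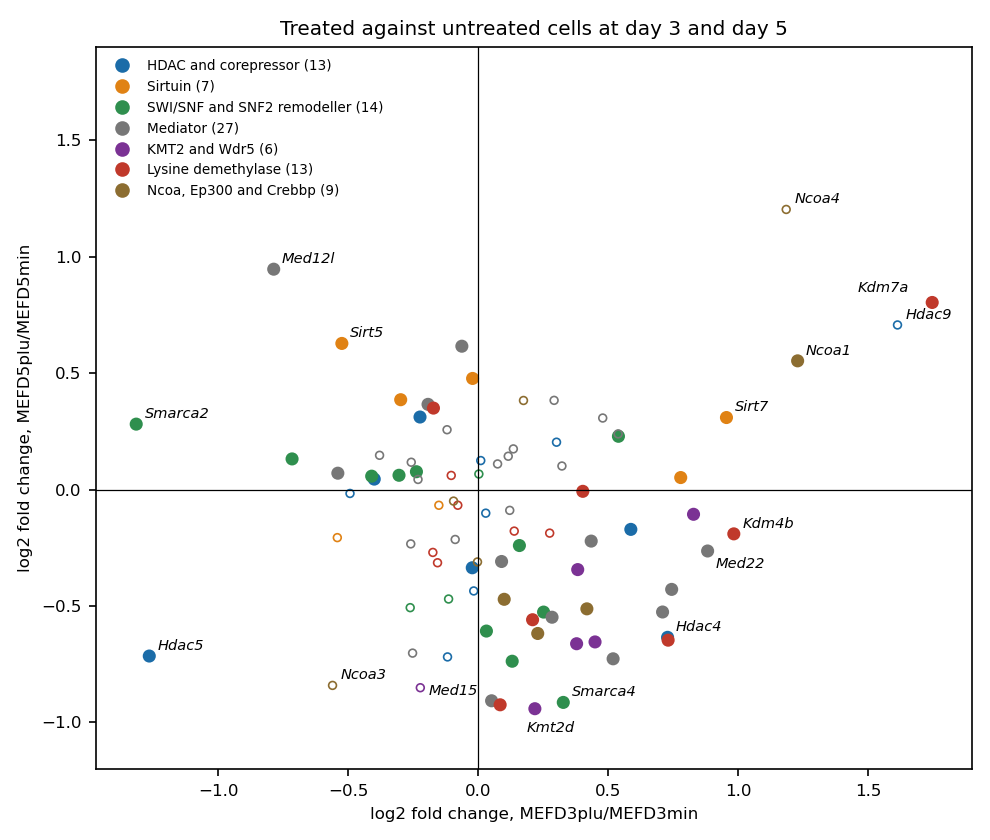
Log2 fold change of treated against untreated cells at day 3 (x axis) and day 5 (y axis) for each member, coloured by complex; large filled points passed the test of the difference between the days. Kdm7a, Ncoa1 and Ncoa4 lie at the upper right, Hdac5 and Ncoa3 at the lower left, Smarca2 at the upper left, and Hdac4, Kmt2d and Smarca4 at the lower right.

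Promoters were read for members that moved alike at both days and for Smarca4. The 250 bases before the RefSeq start (GRCm38.p6), which 71 of the 89 members had, were searched on both strands for the CCAAT box (CCAAT), the cAMP response element (TGACGTCA), E2F sites (TTTCCCGC or TTTGGCGC), the C/EBP palindrome (TTGCGCAA), and the PPAR DR1 and glucocorticoid response elements. These letters do not overlap each other as searched. A CCAAT box stood in 24 of the 71 (33.8%), against 41.1% of 27025 genes. It stood in 8 of the 13 members lower at day 3 (61.5%), 4 of the 18 higher at day 3 (22.2%), 7 of the 26 lower at day 5 (26.9%) and 5 of the 14 higher at day 5 (35.7%). E2F sites stood in 5 members (7.0% against 1.80%) and a cAMP response element in 1 (1.4% against 2.03%), and the other elements in none (against 0.21%, 0.16% and 0.26%). The 4 stretches shown, 5′ to 3′ on the gene's strand, are those of Hdac5 (chr11:102230173-102230422, minus strand) and Med19 (chr2:84678152-84678401, plus strand), both lower at both days, of Ncoa1 (chr12:4477183-4477432, minus strand), higher at both, and of Smarca4 (chr9:21615919-21616168, plus strand); capitals mark CCAAT boxes on either strand, and the far end of the Med19 stretch lies in the first exon of Tmx2 on the other strand.
Hdac5: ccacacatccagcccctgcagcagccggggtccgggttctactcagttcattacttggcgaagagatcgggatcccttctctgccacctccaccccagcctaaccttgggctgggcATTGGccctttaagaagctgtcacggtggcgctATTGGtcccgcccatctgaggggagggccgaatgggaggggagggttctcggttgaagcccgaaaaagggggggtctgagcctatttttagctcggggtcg
Med19: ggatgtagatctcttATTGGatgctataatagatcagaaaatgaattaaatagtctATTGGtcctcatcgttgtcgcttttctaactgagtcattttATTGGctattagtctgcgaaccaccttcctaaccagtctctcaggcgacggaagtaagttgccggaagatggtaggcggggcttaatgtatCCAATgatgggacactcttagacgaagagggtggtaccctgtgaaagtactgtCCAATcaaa
Ncoa1: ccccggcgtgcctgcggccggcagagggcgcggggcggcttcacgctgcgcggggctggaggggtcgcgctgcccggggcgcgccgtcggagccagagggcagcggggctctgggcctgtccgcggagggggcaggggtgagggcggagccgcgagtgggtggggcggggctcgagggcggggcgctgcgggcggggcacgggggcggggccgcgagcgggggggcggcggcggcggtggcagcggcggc
Smarca4: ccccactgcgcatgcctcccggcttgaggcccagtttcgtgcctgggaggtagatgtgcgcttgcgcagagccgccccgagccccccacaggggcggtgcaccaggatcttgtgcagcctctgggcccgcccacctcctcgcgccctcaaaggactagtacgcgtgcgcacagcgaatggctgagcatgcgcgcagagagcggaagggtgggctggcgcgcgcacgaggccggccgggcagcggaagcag
Hdac5 has 2 CCAAT boxes in this window and Med19 has 5, while none of the searched elements stands in that of Ncoa1 or Smarca4. A match is a run of letters and not a measured binding site, and its absence here says nothing of the factor.

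The paired ATPases of the SWI/SNF complex took different courses. In what follows, 3 values of a condition stand in the order of replicates 1, 3 and 4. Smarca2 (chromosome 19, 26605050 to 26778322, GRCm38), which encodes the BRM ATPase, gave 31.7, 26.9 and 28.6 CPM in MEFD0, 66.7, 58.3 and 71.3 CPM in MEFD3min and 25.4, 23.6 and 29.8 CPM in MEFD3plu. It gave 53.1, 41.2 and 50.7 CPM in MEFD5min and 59.4, 56.5 and 60.4 CPM in MEFD5plu. Untreated cells at day 3 were thus, in their mean, more than 2 times above both the starting cells and the treated cells, with no overlap. The log2 fold change was -1.31 ± 0.11 (SE) at day 3 (edgeR adjusted p = 2.6e-08) and 0.28 ± 0.11 at day 5 (edgeR adjusted p = 0.042), and the difference between the days was -1.60 ± 0.16 (edgeR adjusted p = 4.0e-07). The small rise at day 5 was not called with DESeq2 (adjusted p = 0.11) or its size factors (edgeR adjusted p = 0.086), nor under library totals alone (edgeR adjusted p = 0.34), nor in 8 of the 15 fits that left out 1 library: without MEFD5min replicate 3 or 4 or any MEFD5plu sample, where the adjusted p reached 0.21, and by little without MEFD0 replicate 4, MEFD3min replicate 1 or MEFD3plu replicate 1.

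Smarca4 (chromosome 9, 21616169 to 21704230), which encodes the alternative ATPase BRG1, fell from 201, 222 and 165 CPM in MEFD0 to 95.9, 122 and 78.3 CPM in MEFD3min, and gave 124, 131 and 117 CPM in MEFD3plu. At day 5 it gave 125, 148 and 108 CPM in MEFD5min and 74.7, 63.5 and 63.9 CPM in MEFD5plu, where every treated sample lay below every untreated one. The log2 fold change was 0.33 ± 0.15 at day 3, which did not pass (edgeR adjusted p = 0.068), and -0.91 ± 0.15 at day 5 (edgeR adjusted p = 7.6e-05). With the replicate number as a block over all 15 samples, the day 3 rise did pass (edgeR adjusted p = 0.0061). The numbers were taken to pair the day 3 samples alone. The rise also passed without MEFD3min replicate 3 (0.51, edgeR adjusted p = 0.0043). That library was singled out on such values, so this pass adds no support. The difference between the days was 1.24 ± 0.21 (edgeR adjusted p = 1.2e-04).

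As a ratio within each sample and per length of exon, the log2 of Smarca2 over Smarca4 was -3.89 ± 0.27 in MEFD0 (SD, n = 3), -1.71 ± 0.47 in MEFD3min and -3.38 ± 0.25 in MEFD3plu. The day 5 values were -2.53 ± 0.40 in MEFD5min and -1.33 ± 0.13 in MEFD5plu. Smarca4 stayed the more abundant transcript per length in each condition. Length is that of all annotated exons of a gene together, 14269 bases for Smarca2 and 6475 for Smarca4. The level of the ratio rests on these lengths, while its difference between conditions does not. The treated minus untreated difference of the log2 ratio was -1.67 ± 0.31 (SE) at day 3 and 1.2 ± 0.24 at day 5, with no overlap of the groups at either day. An exact two-sided permutation test of 3 against 3 samples cannot go below p = 0.1, which both reached (0.12 after Benjamini-Hochberg adjustment over 24 such tests).

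Among the exchangeable BAF60 subunits, Smarcd3 (BAF60c) and Smarcd1 (BAF60a) each passed at 1 day. Smarcd3 gave 7.99, 9.38 and 8.68 CPM in MEFD3min and 5.76, 5.70 and 4.43 CPM in MEFD3plu, a log2 fold change of -0.72 ± 0.13 (edgeR adjusted p = 2.2e-04). At day 5 its levels overlapped, from 4.61 to 5.49 CPM in MEFD5min and 5.06 to 6.18 CPM in MEFD5plu. Its exons overlap genes on the opposite strand over 48.2% of their length, and reads of those genes cannot be told apart from it without strand. Smarcd1 fell at day 5, by 0.53 ± 0.14 (edgeR adjusted p = 0.0046), and gave 0.25 ± 0.15 at day 3 (edgeR adjusted p = 0.13). The day 3 value passed without MEFD3min replicate 3 (edgeR adjusted p = 0.013), which adds no support, since that library was singled out on such values. Genes on the other strand cover 12.7% of the exons of Smarcd1. Smarcd2 (BAF60b) rose from 70.9, 80.6 and 65.8 CPM to 103, 109 and 104 CPM at day 3, a log2 fold change of 0.54 ± 0.08 (edgeR adjusted p = 2.6e-05), and its rise of 0.23 ± 0.08 at day 5 was lost with DESeq2 (adjusted p = 0.075) under library totals alone (edgeR adjusted p = 0.59), without the filter on low counts (edgeR adjusted p = 0.097), and without MEFD5min replicate 1 or 4 or MEFD5plu replicate 1 (up to 0.24).

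Over the 14 SWI/SNF and SNF2-type genes, 1 was higher and 6 lower at day 3 (7% and 43%, against 28% of all genes in each direction). At day 5, 2 were higher and 7 lower (14% and 50%, against 26.3% and 24.2% of all genes). The medians of the 14 were -0.06 and -0.09. With offsets for exon length and GC content these medians were -0.10 and -0.16, and under library totals alone the day 5 median was -0.25. Most of the day 3 decreases were small. The core subunits Smarcc1 and Smarce1 fell by 0.26 ± 0.09 and 0.30 ± 0.08, and the DNA repair ATPases Smarcad1 and Smarcal1 fell by 0.24 ± 0.08 and 0.41 ± 0.09. The Smarcc1 call was lost without MEFD3min replicate 3 or MEFD3plu replicate 4 (adjusted p up to 0.083), and that of Smarcad1 without MEFD3min replicate 1 or MEFD3plu replicate 3 or 4 (adjusted p up to 0.095). At day 5 the decreases reached Arid1a, the BAF-defining DNA-binding subunit, at -0.74 ± 0.24 (edgeR adjusted p = 0.015), its paralogue Arid1b at -0.47 ± 0.18 (edgeR adjusted p = 0.039) and the core subunit Smarcb1 at -0.61 ± 0.11 (edgeR adjusted p = 2.2e-04). The Arid1a call was lost without MEFD5min replicate 3 or MEFD5plu replicate 3 (adjusted p up to 0.062), and the Arid1b call without MEFD5min replicate 1 or 3 or MEFD5plu replicate 3 or 4 (adjusted p up to 0.14) and with offsets for exon length and GC content (adjusted p = 0.16).

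Class IIa histone deacetylases shuttle between nucleus and cytoplasm. Hdac5 (chromosome 11, 102194432 to 102230166) gave 79.6, 93.6 and 72.8 CPM in MEFD3min against 32.7, 36.2 and 33.6 CPM in MEFD3plu. At day 5 it gave 77.7, 87.9 and 78.3 CPM against 53.0, 47.2 and 48.3 CPM. The treated samples were below the untreated ones at both days without overlap. The decrease was -1.26 ± 0.10 at day 3 (edgeR adjusted p = 5.2e-09) and -0.71 ± 0.09 at day 5 (edgeR adjusted p = 8.5e-06), and it was larger at day 3 by -0.55 ± 0.13 (edgeR adjusted p = 0.0026), a difference that missed the threshold under library totals alone (edgeR adjusted p = 0.051).

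Its paralogue Hdac4 (chromosome 1, 91928779 to 92195699) rose at day 3 and fell at day 5. It gave 22.5, 28.5 and 16.3 CPM in MEFD3min, 40.9, 39.4 and 31.5 CPM in MEFD3plu, 20.1, 20.8 and 17.8 CPM in MEFD5min and 15.3, 10.7 and 11.8 CPM in MEFD5plu. The groups did not overlap at either day. The log2 fold changes were 0.73 ± 0.17 (edgeR adjusted p = 0.0018) and -0.63 ± 0.18 (edgeR adjusted p = 0.0072), and between the treated conditions the level fell by 1.56 ± 0.18 on the log2 scale. Genes on the other strand cover 22.4% of its exons.

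Hdac9, another class IIa enzyme, was low throughout, from 0.19 to 0.34 CPM in MEFD3min and 0.75 to 1.00 CPM in MEFD3plu, and from 1.16 to 1.75 CPM in MEFD5min and 2.38 to 2.41 CPM in MEFD5plu. The treated samples were above the untreated ones at both days, by 1.61 ± 0.33 (edgeR adjusted p = 5.1e-04) and 0.71 ± 0.26 (edgeR adjusted p = 0.032). The day 5 call was lost without MEFD5min replicate 1 or 4 or any 1 of the MEFD5plu samples (adjusted p up to 0.17) under library totals alone (0.096) and without the filter on low counts (0.092). Between the untreated conditions, MEFD3min to MEFD5min, Hdac9 rose by 2.33 ± 0.32 (edgeR adjusted p = 1.6e-05). Hdac7 passed at neither day. Hdac11, the class IV enzyme, rose in untreated culture from 2.40, 2.33 and 2.07 CPM in MEFD0 to 6.36, 6.96 and 6.02 CPM in MEFD3min, and was lower in MEFD3plu, at 3.85, 4.83 and 5.05 CPM, by 0.49 ± 0.14 (edgeR adjusted p = 0.0071). It gave -0.02 ± 0.14 at day 5, and genes on the other strand cover 17.9% of its exons.

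Of the class I enzymes, Hdac1 moved little and in both directions. It gave 43.8, 40.0 and 46.8 CPM in MEFD3min, 36.5, 35.7 and 39.6 CPM in MEFD3plu, 46.4, 45.6 and 47.6 CPM in MEFD5min and 58.1, 58.2 and 57.0 CPM in MEFD5plu. The log2 fold changes were -0.22 ± 0.08 (edgeR adjusted p = 0.029) and 0.31 ± 0.08 (edgeR adjusted p = 0.0045). The first was lost without MEFD3min replicate 1 or 4 or MEFD3plu replicate 1 or 3 (adjusted p up to 0.11), in a fit of the compared samples only (0.087) and without the filter on low counts (0.084). The second was lost under library totals alone (0.11) and with offsets for length and GC content, where it was 0.16 (adjusted p = 0.11). Moreover, 35.5% of the 50-base stretches of its exons also occur in another annotated gene, chiefly Gm10093, so its counts depend on how such reads were treated. Hdac2 and Hdac3 passed at neither day, with log2 fold changes of 0.01 ± 0.09 and 0.03 ± 0.07 at day 3 and 0.12 ± 0.09 and -0.10 ± 0.07 at day 5.

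The scaffold gene Ncor1 (NCoR) rose at day 3 from 187, 222 and 163 CPM to 297, 295 and 266 CPM, a log2 fold change of 0.59 ± 0.10 (edgeR adjusted p = 6.3e-05), and gave -0.17 ± 0.10 at day 5 (edgeR adjusted p = 0.16). The SIN3 scaffolds fell at different days, Sin3b at day 3 by 0.40 ± 0.07 (edgeR adjusted p = 1.1e-04) and Sin3a at day 5 by 0.34 ± 0.09 (edgeR adjusted p = 0.0034). Over the 13 HDAC and corepressor genes, 3 were higher and 4 lower at day 3 (23% and 31%, against 28% of all genes in each direction). At day 5, 2 were higher and 4 lower (15% and 31%, against 26.3% and 24.2% of all genes).

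Sirtuins, the NAD-dependent deacylases, followed no single course. Sirt7, the nucleolar enzyme, rose from 13.5, 12 and 10.1 CPM in MEFD3min to 21.6, 23.6 and 23.8 CPM in MEFD3plu, a log2 fold change of 0.95 ± 0.13 (edgeR adjusted p = 5.2e-06). The mitochondrial Sirt4 rose from 6.42, 6.88 and 4.34 CPM to 11.3, 10.6 and 8.54 CPM, by 0.78 ± 0.19 (edgeR adjusted p = 0.0019). Neither passed at day 5, at 0.31 ± 0.13 and 0.05 ± 0.19. The mitochondrial desuccinylase Sirt5 lay at 2.69 to 5.54 CPM over the 4 later conditions, and 14.2% of its 50-base stretches also occur in another gene. Sirt5 fell by 0.52 ± 0.17 at day 3 (edgeR adjusted p = 0.017) and rose by 0.63 ± 0.17 at day 5 (edgeR adjusted p = 0.0058), with the day 3 call lost without MEFD3min replicate 3 or MEFD3plu replicate 1 (adjusted p up to 0.075). The cytoplasmic Sirt2 had the same pattern, at -0.30 ± 0.08 (edgeR adjusted p = 0.0063) and 0.39 ± 0.08 (edgeR adjusted p = 0.0012). Sirt3, the main mitochondrial deacetylase, rose at day 5 by 0.48 ± 0.11 (edgeR adjusted p = 0.0022), Sirt6 fell at day 3 by 0.54 ± 0.16 (edgeR adjusted p = 0.0080), and Sirt1 passed at neither day. Genes on the other strand cover 12.7% of the exons of Sirt3.

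Mediator was the largest complex, with 27 members. At day 3, 9 were higher and 3 lower (33% and 11%, against 28% of all genes in each direction). At day 5, 4 were higher and 9 lower (15% and 33%, against 26.3% and 24.2% of all genes). Its median log2 fold change was 0.09 at day 3 and 0.07 at day 5, and the latter turned to -0.09 under library totals alone and to -0.17 with offsets for length and GC content. By module, 3 of 9 head, 2 of 8 middle, 3 of 7 tail and 1 of 3 kinase module genes were higher at day 3. At day 5, 3 head genes and 1 tail gene were higher, and 2 head, 2 middle, 3 tail and 2 kinase module genes were lower.

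The head subunit gene Med22 (chromosome 2, 26905262 to 26910677) had the largest increase of the complex at day 3. It gave 49.8, 47.4 and 44.7 CPM in MEFD3min, 93.1, 86.3 and 82.2 CPM in MEFD3plu, 46.8, 54.7 and 49.1 CPM in MEFD5min and 45.7, 39.2 and 40.5 CPM in MEFD5plu. The log2 fold change was 0.88 ± 0.08 (edgeR adjusted p = 9.7e-08) at day 3 and -0.26 ± 0.08 (edgeR adjusted p = 0.015) at day 5, a call that was lost without MEFD5min replicate 3 or MEFD5plu replicate 3 or 4 (adjusted p up to 0.081) and without the filter on low counts (0.053). MEFD3plu was also above MEFD0, which gave 68.9 to 71.7 CPM.

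The tail subunit genes Med24 and Med25, whose proteins contact activators, took the same course. Med24 gave 27, 32.7 and 21.5 CPM in MEFD3min against 43.7, 46.8 and 42.5 CPM in MEFD3plu, and 32.0, 36.3 and 30.8 CPM in MEFD5min against 25.2, 22.1 and 21.5 CPM in MEFD5plu. Its log2 fold changes were 0.71 ± 0.13 (edgeR adjusted p = 1.5e-04) and -0.53 ± 0.13 (edgeR adjusted p = 0.0028). Those of Med25 were 0.74 ± 0.16 (edgeR adjusted p = 6.1e-04) and -0.43 ± 0.16 (edgeR adjusted p = 0.031), the latter lost without MEFD5min replicate 3 or MEFD5plu replicate 3 or 4 (adjusted p up to 0.17) and with offsets for length and GC content, where it was -0.17 (adjusted p = 0.13). Another tail gene, Med15, fell at day 5 from 58.8, 61.9 and 48.9 CPM to 34.0, 28.6 and 27.9 CPM, by 0.91 ± 0.15 (edgeR adjusted p = 1.2e-04), with 0.05 ± 0.15 at day 3.

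In the kinase module, which restrains the core complex, Med13l rose from 109, 155 and 86.8 CPM to 172, 182 and 150 CPM at day 3 and fell from 120, 129 and 103 CPM to 78.0, 62.5 and 71.6 CPM at day 5. One MEFD3min sample, replicate 3, overlapped the treated samples. The log2 fold changes were 0.52 ± 0.17 (edgeR adjusted p = 0.014), lost without MEFD3min replicate 1 or 4 or MEFD3plu replicate 3 (adjusted p up to 0.064), and -0.73 ± 0.17 (edgeR adjusted p = 0.0018). Its paralogue Med13 gave 0.09 ± 0.11 and fell by 0.31 ± 0.11 at day 5 (edgeR adjusted p = 0.025), lost without MEFD5min replicate 1 or 3 or MEFD5plu replicate 1 or 3 (adjusted p up to 0.093). Med12l, the X-linked Med12's autosomal paralogue, lay between 0.028 and 0.62 CPM and passed at neither day.

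Med1, the subunit through which PPARγ and other nuclear receptors reach Mediator, gave 77.7, 89.5 and 69.7 CPM in MEFD3min and 112, 112 and 96.6 CPM in MEFD3plu, a log2 fold change of 0.43 ± 0.10 (edgeR adjusted p = 0.0011). At day 5 it gave 81.9, 86.9 and 79.3 CPM against 68.2, 69.4 and 75.1 CPM, where the treated samples were lower without overlap but the change of -0.22 ± 0.10 did not pass (edgeR adjusted p = 0.071). Med19, a subunit at the junction of head and middle modules, was lower at both days, from 17, 16.4 and 20.0 CPM to 14.3, 15.7 and 14.7 CPM and from 19.6, 21.1 and 20.6 CPM to 16.7, 17.7 and 17.8 CPM. These decreases, -0.26 ± 0.09 (edgeR adjusted p = 0.021) and -0.23 ± 0.09 (edgeR adjusted p = 0.038), were fragile: the first was lost without MEFD3min replicate 4 or MEFD3plu replicate 1 or 4, and the second without MEFD5min replicate 3 or any 1 of the MEFD5plu samples (adjusted p up to 0.12 for each). Both were lost without the filter on low counts (0.084 and 0.18), and the first also with the compared samples only (0.086) and with the offsets (0.16). Of the head subunit genes, Med11 rose at day 5 by 0.62 ± 0.14 (edgeR adjusted p = 0.0015), and by 0.38 with the offsets. Med20 rose by 0.38 ± 0.09 (edgeR adjusted p = 0.0020), which was lost under library totals alone (0.073). Genes on the other strand cover 21.4% of the exons of Med20 and 12.9% of those of Med19. Med18 fell from 8.60, 8.45 and 7.38 CPM to 5.30, 4.96 and 4.73 CPM, by 0.70 ± 0.14 (edgeR adjusted p = 6.3e-04).

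**Figure D3:**
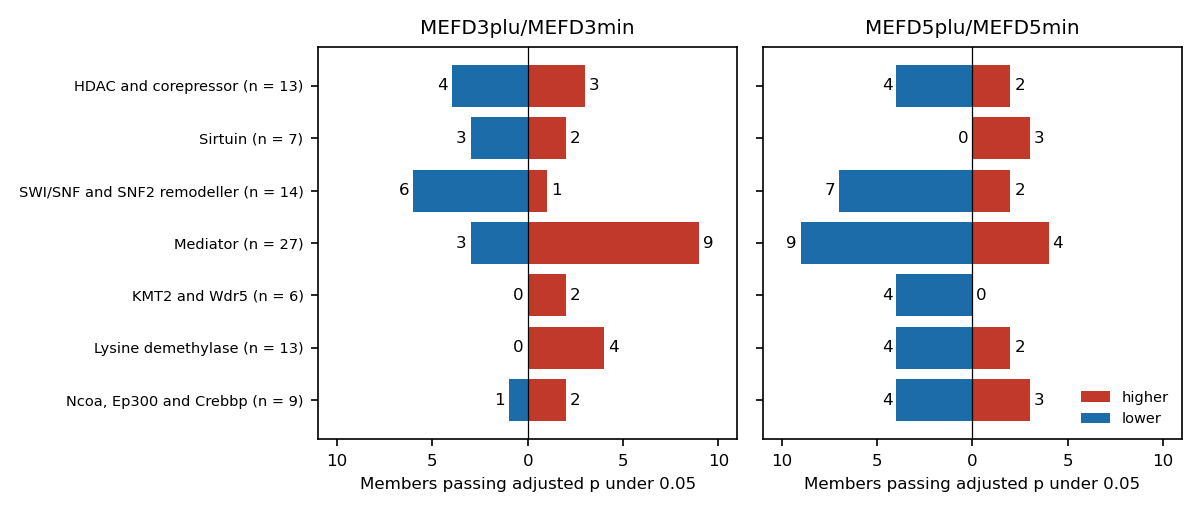
Number of members of each complex called higher (right of 0) or lower (left of 0) in treated against untreated cells at day 3 (left panel) and day 5 (right panel), at an edgeR adjusted p under 0.05. Lysine demethylases and KMT2 genes have no lower call at day 3 and 4 each at day 5, and SWI/SNF has 6 and 7. Of all genes tested, 28% were called in each direction at day 3, and 26.3% higher and 24.2% lower at day 5.

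The products of Kmt2a to Kmt2d methylate H3K4 in complexes that share the subunit Wdr5, while that of Kmt2e carries the family name without being known as an H3K4 methyltransferase of such a complex. Wdr5 (chromosome 2, 27515157 to 27536535) gave 66.0, 63.9 and 61.6 CPM in MEFD0, 36.6, 40.9 and 36.3 CPM in MEFD3min and 47.7, 51.3 and 48.8 CPM in MEFD3plu. It gave 55.2, 57.3 and 45.4 CPM in MEFD5min and 37.4, 30.8 and 31.4 CPM in MEFD5plu. It was therefore higher in treated cells at day 3 and lower at day 5, both without overlap, by 0.38 ± 0.10 (edgeR adjusted p = 0.0032) and -0.66 ± 0.10 (edgeR adjusted p = 2.9e-05).

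Kmt2d, the enhancer methyltransferase MLL4, gave 79.2, 118 and 47.2 CPM in MEFD3min and 101, 116 and 67.9 CPM in MEFD3plu, which overlapped. At day 5 it gave 72.2, 80.3 and 63.3 CPM against 39.0, 37.6 and 35.8 CPM. The log2 fold change was 0.22 ± 0.23 at day 3 (edgeR adjusted p = 0.45) and -0.94 ± 0.24 at day 5 (edgeR adjusted p = 0.0034). Without MEFD3min replicate 3 the day 3 value was 0.59 and passed (edgeR adjusted p = 0.018). This adds no support, since that library was singled out on such values. Kmt2a (MLL1) and Kmt2b fell at day 5 as well, by 0.85 ± 0.21 (edgeR adjusted p = 0.0025) and 0.65 ± 0.23 (edgeR adjusted p = 0.023), while Kmt2c (MLL3) gave -0.34 ± 0.19 and did not pass. The Kmt2b call was lost without MEFD5min replicate 1 or 3 or MEFD5plu replicate 3 (adjusted p up to 0.085) and with the offsets (0.065). At day 3 Kmt2b gave 0.45 ± 0.22 (edgeR adjusted p = 0.098) and Kmt2c 0.38 ± 0.18 (edgeR adjusted p = 0.084), and both passed with the replicate block (0.019 and 0.025) and without MEFD3min replicate 3, where the values were 0.79 (0.0022) and 0.66 (0.0015). The passes without that library again add no support. Kmt2e (MLL5) rose from 117, 151 and 98.3 CPM to 222, 232 and 197 CPM at day 3, by 0.83 ± 0.12 (edgeR adjusted p = 2.1e-05). Over the 6 genes the median was 0.38 at day 3, with 2 higher and none lower (33% and 0%, against 28% of all genes in each direction). At day 5 the median was -0.66, with none higher and 4 lower (0% and 67%, against 26.3% and 24.2% of all genes). The day 5 median was -0.41 with offsets for exon length and GC content.

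Among the lysine demethylases, Kdm7a had the largest increase of any member in treated against untreated cells. Kdm7a (chromosome 6, 39136623 to 39206789), a demethylase of H3K9 and H3K27, gave 11.4, 9.73 and 12.6 CPM in MEFD0, 41.6, 36.7 and 35.9 CPM in MEFD3min and 137, 128 and 118 CPM in MEFD3plu. It gave 35.8, 40.0 and 38.9 CPM in MEFD5min and 64.9, 65.3 and 69.9 CPM in MEFD5plu. The order was the same in each replicate: starting cells lowest, untreated cells between, treated cells highest. The log2 fold change was 1.75 ± 0.10 at day 3 (edgeR adjusted p = 9.3e-11) and 0.80 ± 0.10 at day 5 (edgeR adjusted p = 2.8e-06), smaller by 0.94 ± 0.13 (edgeR adjusted p = 2.3e-05).

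Kdm4b, a demethylase of H3K9 and H3K36, rose at day 3 from 25.0, 31.2 and 21.7 CPM to 52.1, 56.1 and 45.8 CPM, by 0.98 ± 0.14 (edgeR adjusted p = 9.3e-06). At day 5 it overlapped, with -0.19 ± 0.14 (edgeR adjusted p = 0.27). The H3K27 demethylase Kdm6b gave 29.8, 50.8 and 22.7 CPM in MEFD3min, 61.6, 66.5 and 43.8 CPM in MEFD3plu, 32.8, 35.9 and 30.8 CPM in MEFD5min and 25.6, 17.9 and 20.0 CPM in MEFD5plu. MEFD3min replicate 3 lay above MEFD3plu replicate 4, so the groups overlapped at day 3. Its log2 fold changes were 0.73 ± 0.23 (edgeR adjusted p = 0.013) and -0.65 ± 0.24 (edgeR adjusted p = 0.031). The first was lost without MEFD3min replicate 1 or 4 or MEFD3plu replicate 3 (adjusted p up to 0.058) and with the compared samples only (0.052), and the second without MEFD5min replicate 1 or 3 or MEFD5plu replicate 3 or 4 (adjusted p up to 0.12). Its difference between the days, 1.38 ± 0.33 (edgeR adjusted p = 0.0025), held in all 15 such fits.

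Of the other demethylases, Kdm2b, a subunit of a Polycomb complex, fell at day 5 from 24.4, 28.9 and 21.2 CPM to 15.2, 13.2 and 10.8 CPM, by 0.92 ± 0.14 (edgeR adjusted p = 3.7e-05). Kdm5a, an H3K4 demethylase, rose at day 5 by 0.35 ± 0.08 (edgeR adjusted p = 0.0019), lost under library totals alone (0.085). Over the 13 genes, 4 were higher and none lower at day 3 (31% and 0%, against 28% of all genes in each direction). At day 5, 2 were higher and 4 lower (15% and 31%, against 26.3% and 24.2% of all genes). The medians of the 13 were 0.14 and -0.19. The day 5 median was -0.35 under library totals alone and -0.09 with offsets for length and GC content.

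Among the p160 coactivators, Ncoa1 and Ncoa3 moved apart at both days. Ncoa1 (SRC-1, chromosome 12, 4247362 to 4477182) gave 28.1, 35.9 and 23.9 CPM in MEFD3min against 67.0, 72.7 and 66.5 CPM in MEFD3plu, and 22.0, 20.4 and 17.1 CPM in MEFD5min against 31.2, 28.2 and 27.8 CPM in MEFD5plu. Ncoa3 (SRC-3, chromosome 2, 165992636 to 166073242) gave 47.3, 60.6 and 39.0 CPM against 33.3, 36.6 and 29.9 CPM, and 38.7, 37.4 and 35.4 CPM against 24.4, 18.1 and 19.7 CPM. For neither gene did the groups overlap at either day. The log2 fold changes of Ncoa1 were 1.23 ± 0.13 (edgeR adjusted p = 3.8e-07) and 0.55 ± 0.13 (edgeR adjusted p = 0.0022), and those of Ncoa3 were -0.56 ± 0.14 (edgeR adjusted p = 0.0031) and -0.84 ± 0.15 (edgeR adjusted p = 1.5e-04). Ncoa2 (SRC-2) passed at neither day, at -0.00 ± 0.15 and -0.31 ± 0.15.

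Within samples and per length, the log2 ratio of Ncoa1 to Ncoa3 was -1.06 ± 0.05 (SD, n = 3) in MEFD0, -0.86 ± 0.03 in MEFD3min and 0.93 ± 0.09 in MEFD3plu. The day 5 values were -1.03 ± 0.12 in MEFD5min and 0.38 ± 0.14 in MEFD5plu. Ncoa3 was thus the more abundant of the pair per length in all 9 untreated samples and Ncoa1 in all 6 treated ones. Treatment moved the log2 ratio by 1.79 ± 0.05 (SE) at day 3 and 1.41 ± 0.11 at day 5 (exact two-sided permutation p = 0.1 for each, the smallest possible).

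Ncoa4, a coactivator better known as the receptor for autophagy of ferritin, rose alike at both days, from 23.3, 16 and 25.4 CPM to 46.1, 46.4 and 54.2 CPM and from 17.1, 17.4 and 19.1 CPM to 40.8, 41.0 and 41.8 CPM. Its log2 fold changes were 1.18 ± 0.13 (edgeR adjusted p = 8.6e-07) and 1.2 ± 0.14 (edgeR adjusted p = 1.5e-06), and 17.9% of its 50-base stretches occur in another gene. The acetyltransferase genes fell at day 5. Ep300 gave 72.1, 80.8 and 63.9 CPM in MEFD5min and 54.1, 47.3 and 50.5 CPM in MEFD5plu, and Crebbp gave 42.3, 46.4 and 36.6 CPM and 29.9, 23.4 and 28.2 CPM. These changes, -0.51 ± 0.18 (edgeR adjusted p = 0.026) and -0.62 ± 0.20 (edgeR adjusted p = 0.018), did not hold without single libraries: that of Ep300 was lost without MEFD5min replicate 1 or 3 or MEFD5plu replicate 3 or 4 (adjusted p up to 0.099) and with the offsets (0.059), and that of Crebbp without MEFD5min replicate 3 or MEFD5plu replicate 3 (adjusted p up to 0.079). At day 3 they gave 0.42 ± 0.18 (edgeR adjusted p = 0.056) and 0.23 ± 0.20 (edgeR adjusted p = 0.34), which did not pass. Ep300 passed there with the replicate block (edgeR adjusted p = 0.0065). Without MEFD3min replicate 3 both passed, at 0.74 (edgeR adjusted p = 8.8e-05) and 0.54 (edgeR adjusted p = 0.010). Since that library was singled out on such values, these passes add no support. Of the 9 genes of this group, 2 were higher and 1 lower at day 3 (22% and 11%, against 28% of all genes in each direction). At day 5, 3 were higher and 4 lower (33% and 44%, against 26.3% and 24.2% of all genes).

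**Figure D4:**
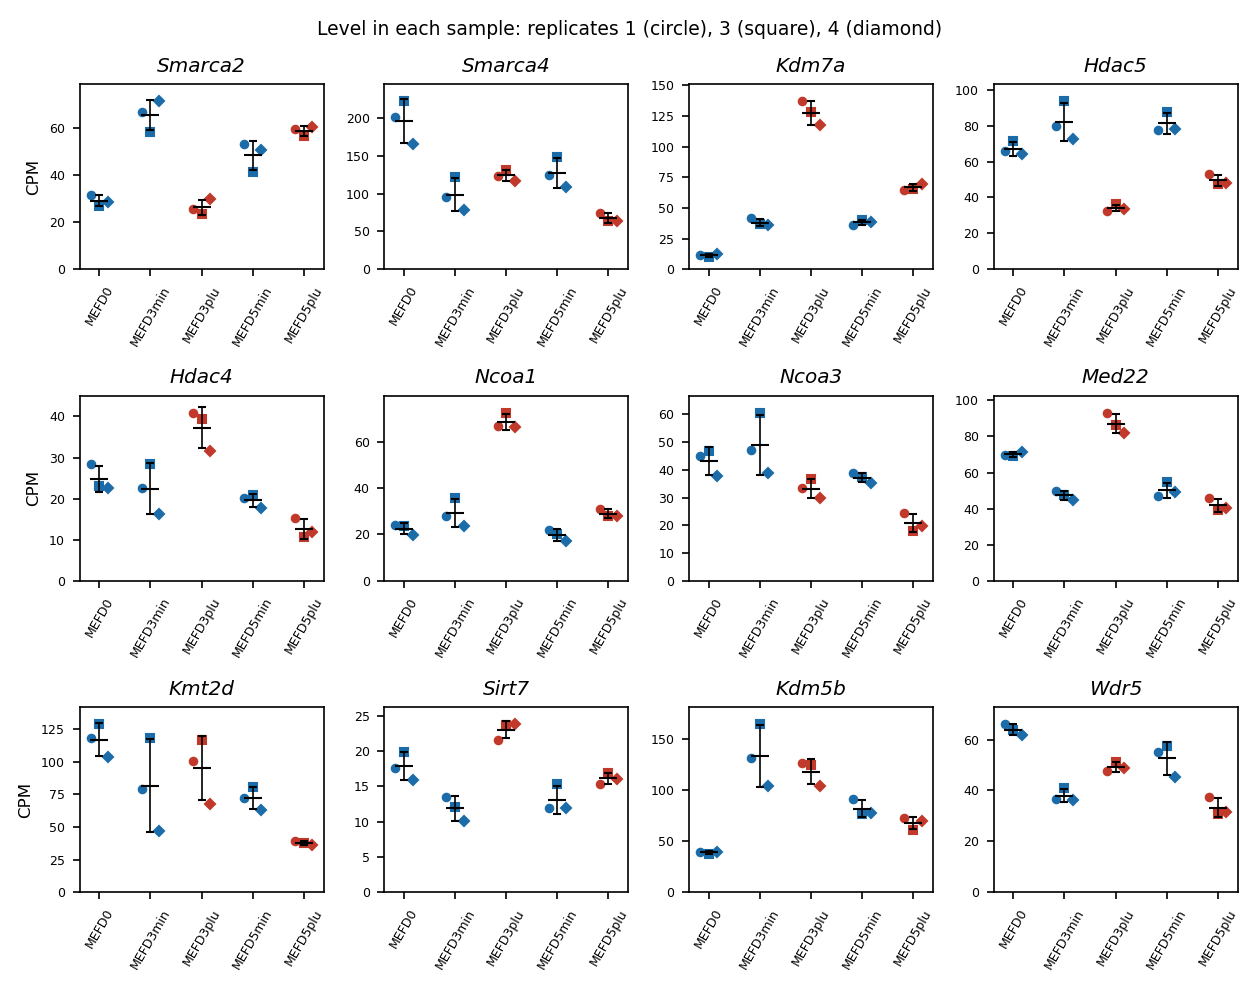
CPM of 12 members in each sample (circle, replicate 1; square, replicate 3; diamond, replicate 4; blue, untreated; red, treated), with the mean and SD of the 3 samples of a condition in black; each axis starts at 0. Kdm7a and Ncoa1 are highest in MEFD3plu, Hdac5 and Ncoa3 are below their untreated samples at both days, and Smarca2 is low in MEFD0 and MEFD3plu alone.

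Of the 12 paralogue pairs compared as log2 ratios per length, 9 had no overlap of treated with untreated samples at day 3, and 11 had none at day 5. Other gene pairs were not counted, and 56.1% and 50.5% of all genes tested passed at day 3 and day 5. The separation is thus not read as particular to these pairs. The Smarcd3 to Smarcd1 ratio moved by -0.99 ± 0.18 (SE) at day 3 and 0.66 ± 0.18 at day 5. The Smarcd2 to Smarcd1 ratio rose by 0.27 ± 0.09 and 0.76 ± 0.08, and the Ncoa2 to Ncoa3 ratio by 0.56 ± 0.04 and 0.54 ± 0.09. The Med13l to Med13 ratio went up by 0.46 ± 0.13 and then down, at -0.42 ± 0.09. The Sin3b to Sin3a ratio did the reverse, at -0.38 ± 0.14 and 0.38 ± 0.08. The Hdac2 to Hdac1 ratio differed by 0.23 ± 0.06 and -0.19 ± 0.03 and the Crebbp to Ep300 ratio by -0.19 ± 0.07 and -0.11 ± 0.06. The Arid1b to Arid1a and Kmt2c to Kmt2d ratios overlapped at day 3 and were higher in treated cells at day 5, by 0.27 ± 0.05 and 0.59 ± 0.09. No exact p could fall below 0.1.

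Untreated culture changed the members too. From MEFD0 to MEFD3min, 22 members rose and 27 fell, against 31.4% and 28.6% of all genes (60% in either direction). Library totals alone moved the all-gene median by -0.12 here. In Mediator 14 of 27 genes were lower and 2 higher (median -0.30, and -0.44 with the offsets), and of the lysine demethylases 8 of 13 were higher and 2 lower (median 0.34, and 0.23 with the offsets). The largest called increase outside the barely detected Med12l was that of Kdm5b, an H3K4 demethylase, from 39.5, 37.6 and 39.8 CPM to 131, 164 and 104 CPM, by 1.77 ± 0.14 (edgeR adjusted p = 5.3e-09), while in treated against untreated cells it gave -0.17 ± 0.13 at day 3 and -0.27 ± 0.13 at day 5. Neither passed, and at day 5 the groups did not overlap. Kdm7a rose by 1.76 ± 0.10 (edgeR adjusted p = 1.4e-10). The largest decreases were those of the head subunit genes Med18, from 8.95, 7.45 and 9.38 CPM to 4.23, 3.51 and 3.30 CPM (-1.22 ± 0.15, edgeR adjusted p = 1.5e-06), and Med8 (-0.92 ± 0.10), and that of Smarca4 (-0.99 ± 0.15).

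From MEFD3min to MEFD5min, 13 members rose and 17 fell, against 21.3% and 21.5% of all genes (42.8% in either direction), and under library totals alone 23 rose and 9 fell. Without MEFD3min replicate 3, 18 rose and 12 fell, and without MEFD3min replicate 4, 18 rose and 23 fell. In treated cells, going from MEFD3plu to MEFD5plu, 25 rose and 44 fell, against 33.8% and 29.2% of all genes (63% in either direction). The lower members, 49% of the 89, included all 6 KMT2 and Wdr5 genes (median -1.07), 10 of 13 demethylases (median -0.77) and 6 of 9 Ncoa, Ep300 and Crebbp genes (median -0.74). With offsets for length and GC content these medians were -0.61, -0.53 and -0.52. Largest were the decreases of Hdac4 (-1.56 ± 0.18), Kdm6b (-1.44 ± 0.24) and Crebbp (-1.43 ± 0.20), and the largest increases were those of Hdac9 (1.43 ± 0.27), Smarca2 (1.16 ± 0.11) and Med30 (1.13 ± 0.15). The 8 cell cycle genes all rose in both of these comparisons and all fell from MEFD0 to MEFD3min. These comparisons share samples with those of treatment and were not set against them.

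The size of a gene moved with its change at day 5. Across the 89 members, the Spearman correlation of the log2 fold change with exon length was 0.14 at day 3 and -0.34 at day 5, beside 0.01 and -0.15 across the 15997 genes tested, and that with GC content was 0.10 and -0.39. The 33 members with more than 8 kb of exon had a median of -0.31 at day 5 (7 higher, 16 lower), and the 56 shorter ones a median of 0.04 (9 higher, 16 lower). From MEFD3plu to MEFD5plu the correlation with length was -0.43, with 24 of the 33 long members lower. With the offsets that correlation was -0.25 and 24 of the 33 were still lower. In the same fit with offsets for length and GC content, the day 5 correlation of the members with length was -0.02. The offsets take out the trend with length over all genes, so a weaker correlation follows in part from how they are built. At day 5, 13 of the 16 higher and 27 of the 32 lower members kept their call in that fit. At day 3 all 23 higher and 16 of the 17 lower members kept it. The part of length in the results was not tested further, and members are not independent replicates.

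**Figure D5:**
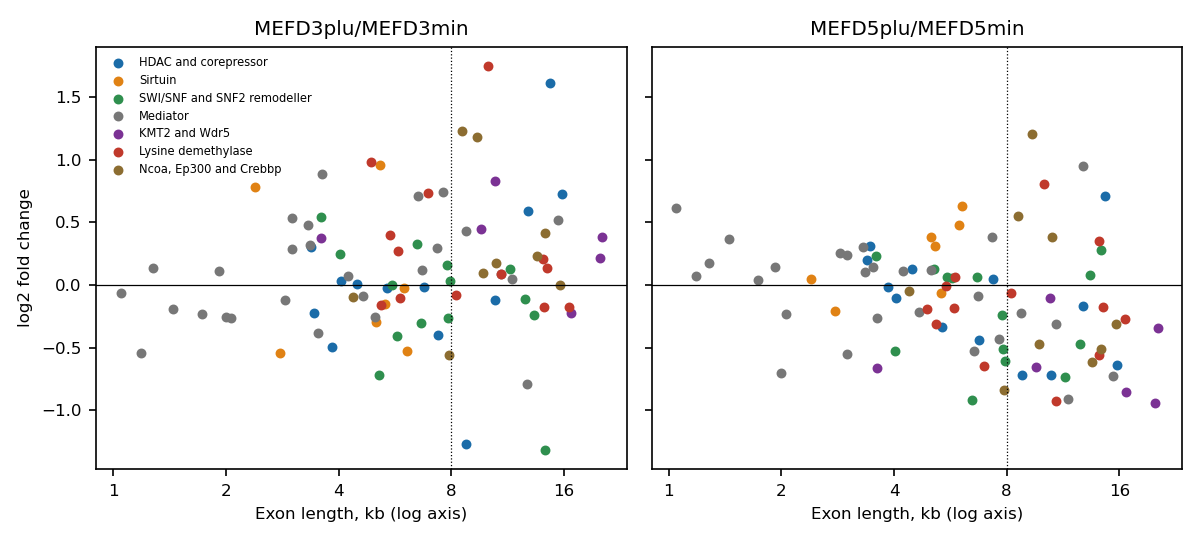
Log2 fold change of each member in treated against untreated cells at day 3 (left) and day 5 (right) over its total exon length in kb (log axis), coloured by complex, with a dotted line at 8 kb. At day 5 the members to the right of the line lie mostly below 0 (median -0.31); at day 3 they lie on both sides (median 0.14).

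Partner genes of the same complexes, which are no members, were counted for comparison. Of all genes tested, 28% were higher and 28% lower at day 3, and 26.3% higher and 24.2% lower at day 5. Of 9 tested COMPASS partners, 3 were higher and 1 lower at day 3, and none higher and 5 lower at day 5, with medians of 0.19 and -0.43. Of 13 NuRD and CoREST genes, 2 were higher and 4 lower at day 3, and 1 higher and 8 lower at day 5 (medians -0.02 and -0.38). Of 15 further BAF and PBAF genes, 4 were higher and 2 lower, then 4 higher and 8 lower (medians -0.03 and -0.24). Of 12 NCoR and SIN3 genes, 2 were higher and 4 lower at each day (medians -0.01 and -0.10). The Mediator kinase Cdk8 rose by 0.71 ± 0.11 at day 3 and its cyclin Ccnc by 0.33 ± 0.12 at both days. Of 13 PGC-1 and other nuclear receptor coregulators, 6 were higher and none lower at day 3, and 2 higher and 6 lower at day 5. These included Ppargc1a, the PGC-1α coactivator of mitochondrial genes, at 3.69 ± 0.24 and 2.81 ± 0.25, and the corepressor Nrip1, at 1.38 ± 0.15 at day 3.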

How the data were processed

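RNA-Seq of 15 MEF samples was analysed, 3 for each of 5 conditions. The authors deposited, for each sample, raw counts of reads per Ensembl gene without normalization. The submitters' processing notes name TopHat2 2.1.0, HTSeq and DESeq2 and the builds GRCm38 and mm10; the annotation release and the strand setting are not given in the sources used here, and the labels and the paper name different library kits. Gene names, exon lengths and overlaps were taken from GENCODE M21 (GRCm38), in which 46091 identifiers had a name and 512 had none. The members and all lists were chosen with earlier results of these data known.

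In R 4.3.3, edgeR 4.0.16 kept 15997 genes (filterByExpr on the conditions), scaled libraries by TMM and fitted 1 quasi-likelihood model to all 15 samples without covariates. Members with a Benjamini-Hochberg adjusted p under 0.05 over all genes tested were called; SEs were taken from this fit. CPM carry the TMM scaling. Members described singly were the 2 most increased and 2 most decreased called members of each complex at each day with no overlap between groups, the 5 at either end of the difference between days, the 3 at either end of MEFD3min/MEFD0 and MEFD5plu/MEFD3plu, those the paper names and those of 12 paralogue pairs, 54 in all, of which 1 is not reported here although it stays in the counts; other members named beside counts were picked after their values were seen. Exact permutation tests used scipy 1.17.1. Totals of 24030558 to 37281126 counts per sample set the precision.

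Same-numbered MEFD3plu and MEFD3min samples deviated together (Pearson r of deviations from the condition means 0.14, 0.23 and 0.36 for replicates 1, 3 and 4), so the numbers were taken to pair these samples, on the evidence of the data alone; in the other comparisons not every pair exceeded 0.1. Alternatives were DESeq2 1.42.0, its size factors, library totals alone, no filter, 10 counts in every sample, the compared samples only, the replicate block and each sample left out. The block put the replicate number in the fit for all 15 samples, not for those of day 3 alone. Offsets for exon length and GC content (splines with 4 degrees of freedom, available for 15929 of the 15997 genes) were an addition made with the data in view. The steps were tested on simulated counts.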

Additional observations from a re-analysis of the deposited data

Results flagged for a closer look

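For 39 of the members described singly, the log2 fold change of treated against untreated cells differed between day 3 and day 5 by edgeR's test of the difference itself (day 3 minus day 5, adjusted p under 0.05). The background is high, since 48.5% of all genes tested passed the same test, as did 50 of all 89 members (56.2%). The members described singly were partly picked by this difference and by their calls at each day. Their share can therefore not be set against that background.

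The difference was negative for 12 of them: Med12l (-1.73), Smarca2 (-1.60), Sirt5 (-1.15), Smarcd3 (-0.85), Sirt2 (-0.68), Med11 (-0.68), Med30 (-0.61), Hdac5 (-0.55), Hdac1 (-0.54), Kdm5a (-0.52), Sirt3 (-0.50) and Sin3b (-0.44). Med12l rests on at most 22 counts in a sample, and its call was lost in 10 of the 15 fits that left out 1 library, with DESeq2 (adjusted p = 0.086), under library totals alone (0.066), without the filter on low counts (0.13) and with the replicate block (0.055). Sirt3 lost its call in 1 of the 15 fits, with length and GC offsets (0.070), under library totals alone (0.15) and without the filter (0.053). Med30 lost it in 6 of the 15 and under library totals alone (0.075), and Hdac5 under library totals alone (0.051); with the offsets Med30 turned to 0.037.

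It was positive for 27. Largest were Kdm6b (1.38), Hdac4 (1.36), Med13l (1.25), Smarca4 (1.24), Med24 (1.23), Kdm4b (1.17), Med25 (1.17), Kmt2d (1.16), Med22 (1.15), Wdr5 (1.04) and Kdm2b (1.01). Med15 (0.96), Kdm7a (0.94), Kmt2e (0.93), Ep300 (0.93), Arid1a (0.87), Crebbp (0.85), Smarcd1 (0.78), Ncor1 (0.76), Sirt4 (0.73), Kmt2c (0.73), Ncoa1 (0.68), Med1 (0.66), Sirt7 (0.65), Med13 (0.40), Sin3a (0.31) and Smarcd2 (0.31) followed. In the fits without 1 library the call was lost in 8 of 15 for Arid1a and Med13, 7 for Sirt4, Sin3a and Smarcd2, 6 for Kmt2c and 3 for Crebbp, with adjusted p up to 0.12, and those of Sin3a and Smarcd2 were lost without the filter too (0.14 and 0.15).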

How the results depend on the processing

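Counts of members called moved by more than 1.5 times in few settings. Under library totals alone they were 8 higher in MEFD5plu/MEFD5min (16 as reported), 9 negative differences between the days (16), and 23 higher and 9 lower in MEFD5min/MEFD3min (13 and 17). With the compared samples only, 9 were lower in MEFD5min/MEFD3min. With offsets for exon length and GC content, added after the data were seen, 43 were lower in MEFD3min/MEFD0 (27 as reported; 45 with the replicate block as well) and 16 higher in MEFD5plu/MEFD3plu (25 as reported). These offsets lowered the share of higher calls among all genes from 52.1% to 40.3% in MEFD5plu/MEFD5min, from 52.3% to 41.8% in MEFD3min/MEFD0 and from 53.6% to 41.2% in MEFD5plu/MEFD3plu, and raised it from 46.7% to 57.2% for the difference between the days; totals alone raised it from 49.7% to 62.7% in MEFD5min/MEFD3min.

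Leaving out 1 library at a time gave these ranges of higher and lower members: 21 to 37 and 13 to 18 in MEFD3plu/MEFD3min, 12 to 19 and 18 to 37 in MEFD5plu/MEFD5min, 25 to 44 and 13 to 18 for the difference between the days, 18 to 28 and 21 to 31 in MEFD3min/MEFD0, 10 to 18 and 12 to 23 in MEFD5min/MEFD3min, and 21 to 26 and 42 to 46 in MEFD5plu/MEFD3plu. The highest counts at day 3 came without MEFD3min replicate 3, and the lowest count of 18 lower members at day 5 without MEFD5plu replicate 3.

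With the replicate block, 29 members were higher and 17 lower in MEFD3plu/MEFD3min, and no count moved by over 1.5 times; Smarca4, Ep300, Kmt2b, Kmt2c, Kdm4a and Hdac10 were the 6 gained there, and none was lost. Of 207 called single results, 1 was lost, Med12l's difference between the days (adjusted p = 0.055). In 11 of the 15 samples the deviations correlated best with those of their own replicate number. Of the same 207, DESeq2 lost 5, DESeq2's size factors 3, library totals alone 26, no filter 16, the compared samples only 17, and 49 were lost in at least 1 of the fits without 1 library. No direction reversed under these settings. With length and GC offsets 3 did, also with the block: Hdac2 in MEFD5plu/MEFD3plu to -0.24 (-0.23 with the block), Med19 in MEFD5plu/MEFD3plu to -0.40 (-0.40), and the difference between the days of Med30 to 0.037 (0.032); the cause was not tested. Depth limits Med12l and Hdac9, with at most 22 and 80 counts in a sample.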
